A study of Mus musculus with 84 samples.

Results

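Intestinal fat (Fat) was compared with whole virgin mammary gland (VMG) on spotted mouse cDNA arrays that carried 15360 clones. The samples were chosen by label alone. They were the 3 samples labelled Fat, numbered 44, 45 and 46, and the 5 labelled VMG, numbered 13, 17, 27, 28 and 29. These 8 samples belong to a series of 84 samples, of which 65 were hybridized to the 15k arrays used here. The fat came from the intestine of virgin FVB mice of 12 weeks and the glands from virgin FVB mice without a transgene of 9 weeks, with no treatment stated for either, so that tissue and age cannot be told apart. All samples were snap-frozen and extracted with Trizol. The labels do not say whether each sample was a separate animal, so the p-values measure the spread between these samples. Each array set Cy5-labeled sample RNA against Cy3-labeled reference RNA from a single pool of ovary, liver, spleen, kidney, thymus, pancreas, lung and lactating mammary gland. A value is the log2 of the ratio of sample to reference for a single clone, so levels were compared between samples within a clone and not between clones. The study collected fat because adipocytes lie around the mammary epithelium.

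The virgin mammary gland is a thin tree of epithelial ducts within a pad of adipose tissue. Luminal cells line the ducts and myoepithelial cells surround them, while adipocytes, fibroblasts, vessels, nerves and immune cells make up the pad, which lies under the skin and over the muscle of the body wall. Intestinal fat lies inside the abdominal cavity under a mesothelium and contains no mammary epithelium. White adipocytes take up fatty acids that lipoprotein lipase releases from circulating lipoproteins, store them as triglyceride in lipid droplets, release them by lipolysis, and secrete hormones such as leptin and adiponectin.

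Fat 44 stood apart from the other arrays. Its log2 ratios had an SD of 2.59, the largest of the 65 arrays, against 1.13 in Fat 45, 0.969 in Fat 46 and 0.81 to 0.863 in the 5 glands. The SDs of all 3 fat arrays were above those of all 5 glands (mean 1.56 against 0.836, exact permutation test, two-sided, p = 0.0179, the smallest that 56 splits can give). The wide spread of Fat 44 was known before this test and raises the fat mean. The SDs of Fat 45 and 46 alone were also above every gland, which was not tested. Fat 44 held 1263 ratios under 0.01, against 3 to 29 on the other 7 arrays, and gave the log2 ratio 0.41 on 1094 clones. The other 7 arrays repeated a single value on 110 to 174 clones each. What the repeated value stands for was not given in the sources used here. The correlation across clones was 0.861 between Fat 45 and Fat 46, 0.596 to 0.616 between Fat 44 and either of them, and 0.764 to 0.937 among the glands. Results are therefore given with and without Fat 44, and a value of Fat 44 at 0.41 is named as a repeated value.

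**Figure D1:**
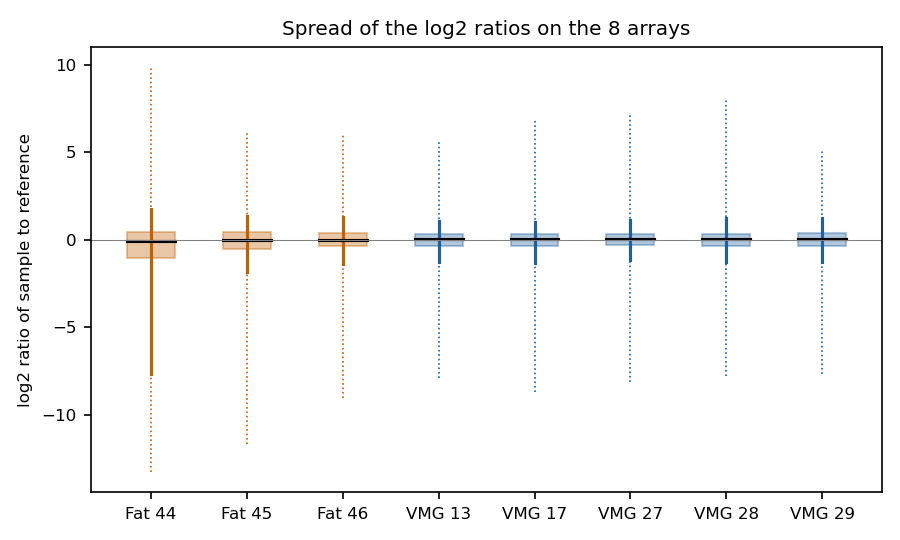
Spread of the log2 ratios on the 3 Fat and 5 VMG arrays. Boxes run from percentile 25 to percentile 75 with a line at the median, thick lines from percentile 5 to percentile 95, and dotted lines to the lowest and highest clone. Fat 44 reached down to -13.29 and had an SD of 2.59, against 0.81 to 1.13 on the other 7 arrays.

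With all 8 arrays, 816 of 15360 clones were higher in fat than in gland (5.31%) and 580 were lower (3.78%) at a Benjamini-Hochberg adjusted p under 0.05. Without Fat 44 the counts were 1027 (6.69%) and 989 (6.44%), whereas they were 393 and 247 without Fat 45, 377 and 229 without VMG 17, 372 and 205 without VMG 27, 430 and 212 without VMG 28, and 415 and 217 without VMG 29. With all arrays and without Fat 44, 716 higher and 481 lower clones were called in both fits and 0 changed direction between them. At least a 3-fold difference was seen for 90 of the higher and 112 of the lower clones, and without Fat 44 for 87 and 192. The median log2 difference, fat minus gland, over all clones was -0.11, and -0.04 without Fat 44. With the repeated value and ratios under 0.01 or over 100 set missing, 1071 of 15190 clones were higher (7.05%) and 1068 lower (7.03%), and without Fat 44 as well, 1072 of 15162 (7.07%) and 1020 (6.73%). All 3 fat samples were above all 5 glands on 1807 of 15356 clones (11.8%) and below them on 2510 (16.3%). The shares over all clones are the background for the counts of the gene lists below. The balance of calls depended on how the arrays were scaled. With quantile normalization 574 clones were higher and 613 lower, and with each array centred on its median and scaled to a common median absolute deviation, 372 were higher and 357 lower. The fat arrays spread more widely, and scaling to a common spread changed the list medians unequally. The adipocyte median fell from 1.10 to 0.19 and the luminal one went from -2.13 to -1.35. Skeletal muscle stayed near its value (-2.51 and -2.53), respiration went from -0.42 to -0.75, and the pancreas list turned from -2.10 to 0.50. The effect of scaling is given beside the gene groups with the most calls. For the smaller groups, scaling to a common spread left called 2 of 6 matrix clones, 1 of 3 depot and position clones, 1 of 5 receptor clones, and 0 of the 4 interferon response, 3 ribosomal protein and 2 fatty acid oxidation clones called without it.

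**Figure D2:**
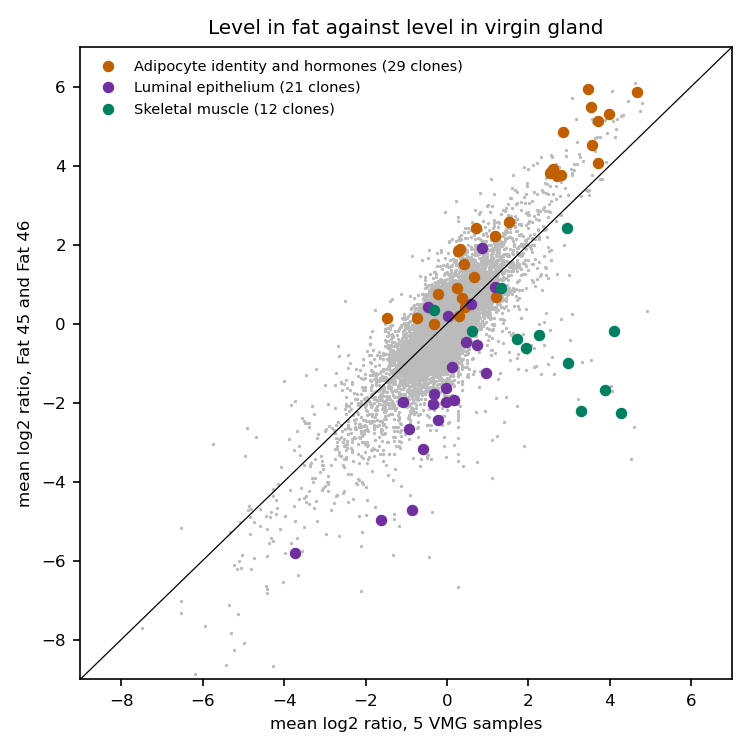
Mean log2 ratio of Fat 45 and Fat 46 against the mean of the 5 VMG samples, a point for each clone, with equal levels on the diagonal line. Adipocyte clones (orange) lay mostly above the line, with a median difference of 1.04, and luminal (purple) and skeletal muscle (green) clones mostly below it, with medians of -1.61 and -2.57. The adipocyte clones of highest ratio moved towards or across the line when arrays were scaled to a common spread.

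Genes of adipocytes were higher in intestinal fat than in the gland. Of 29 clones for 15 measured genes of adipocyte identity and hormones, 21 were higher, covering 13 genes, and 0 were lower (background 5.31% and 3.78%). The median log2 difference was 1.10 with all arrays and 1.04 without Fat 44, when 21 clones were again higher. In such bulk tissue, fewer cells of a type and less RNA per cell cannot be told apart. The markers were also well above the reference in the glands, with list medians of 0.87 to 1.67 in VMG and 2.28 to 2.69 in fat.

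Car3, the carbonic anhydrase III that is abundant in adipocytes, gave log2 ratios of 5.23, 5.49 and 5.11 in Fat 44, 45 and 46, and 4.02, 3.74, 3.91, 4.22 and 3.96 in VMG 13, 17, 27, 28 and 29. The fat samples were above all glands, by 1.30 ± 0.15 on the log2 scale (SE, 2.47-fold, adjusted p = 0.00424). The second Car3 clone differed by 1.38 (adjusted p = 0.022). Lpl, the lipase that releases fatty acids at the capillary wall, gave 4.07, 4.11 and 3.87 in fat and 2.82, 2.62, 2.56, 2.95 and 2.58 in the glands, with no overlap and a difference of 1.31 ± 0.13 (adjusted p = 0.00303). On its second clone the fat samples were also above all glands, but the difference of 0.59 did not pass the test (adjusted p = 0.0543).

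Leptin showed the widest gap among the adipocyte genes. Lep, the hormone that reports fat stores, gave 7.59, 6.21 and 5.67 in fat and 3.33, 3.16, 3.56, 3.93 and 3.39 in gland. The lowest fat sample was far above the highest gland, and the difference was 3.02 ± 0.41 (8.08-fold, adjusted p = 0.00785), or 2.46 without Fat 44 (adjusted p = 0.000954). The other Lep clone lay near the reference in all samples and did not pass the test (-0.13, adjusted p = 0.49). Adipoq, which encodes adiponectin, gave 6.01, 6.02 and 5.68 in fat against 4.38, 4.56, 4.70, 4.96 and 4.69 in gland, a smaller step of 1.25 ± 0.16 (adjusted p = 0.00645). Retn, which encodes resistin, was higher by 1.82 (adjusted p = 0.00426).

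The transcription factors of the adipocyte were higher in fat as well. Cebpa gave 2.07, 1.90 and 1.87 in fat and 0.23, 0.22, 0.31, 0.40 and 0.47 in gland, so that each group lay within a narrow range and they did not overlap (1.62 ± 0.11, adjusted p = 0.0007). Pparg, the nuclear receptor that drives adipocyte differentiation, was higher on 2 of its 3 clones, by 1.10 (adjusted p = 0.00916) and 1.09 (adjusted p = 0.0467), the latter not called without Fat 44 (1.04, adjusted p = 0.0555). Fabp4, the adipocyte fatty acid binding protein, was higher by 1.99 ± 0.19 (adjusted p = 0.00246) on a clone with 5.62, 5.54 and 5.44 in fat and 3.21 to 3.99 in gland. All 3 clones of Cav1, the main protein of caveolae, were higher, by 1.31 to 1.36, and Cav2 by 1.08. Npr3, the clearance receptor for natriuretic peptides, was higher by 2.02 (adjusted p = 0.00665) and 1.53 on 2 of 3 clones. Adipor2, an adiponectin receptor, was higher on 3 of 4 clones, while the fourth gave a difference of -0.59 that did not pass (adjusted p = 0.119).

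The size of these adipocyte differences depended on the scaling. All 21 called clones stayed above 0 after quantile normalization and 9 were still called. With arrays centred and scaled to a common spread, 15 stayed above 0 and 5 were called, and without Fat 44 under the same scaling 20 stayed above 0 and 6 were called. Car3 fell to -0.29 and -0.14, Adipoq to -0.57 and the 2 called Pparg clones to -0.05 and -0.08 when all 8 arrays were scaled in this way, none of them called. Lep and Cebpa stayed above 0 under each scaling tried.

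**Figure D3:**
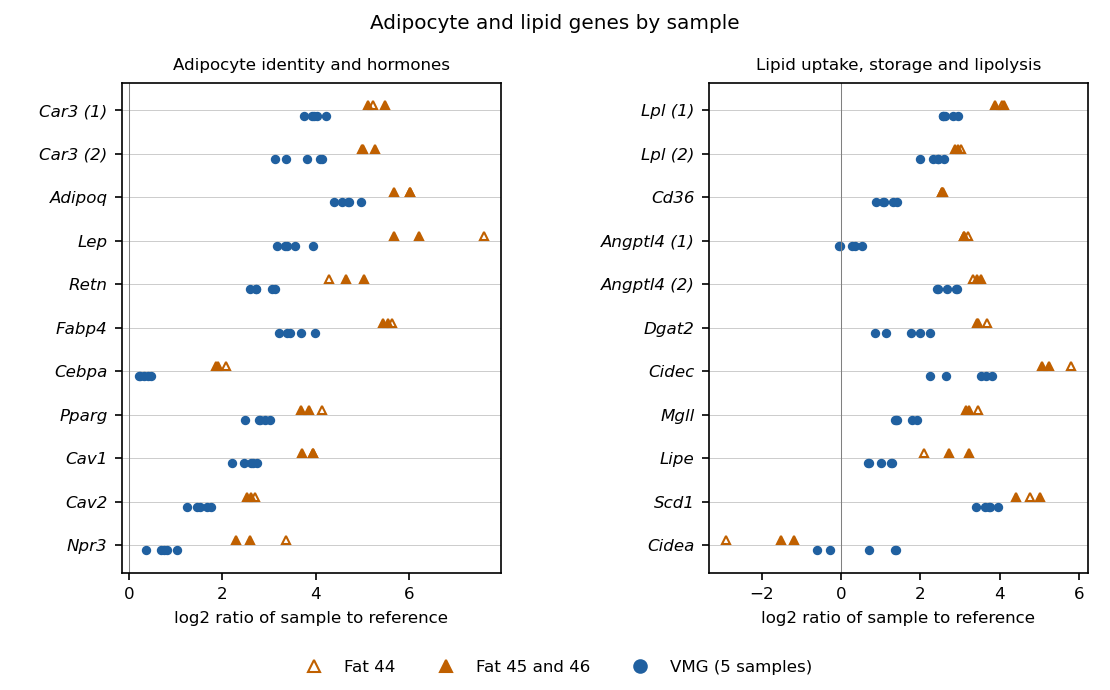
Log2 ratio of sample to reference for adipocyte and lipid genes, a point for each sample, with Fat 44 as open triangles, Fat 45 and 46 as filled triangles and the 5 VMG samples as circles. Every gene but Cidea had all fat samples above all glands, with Lep at 5.67 to 7.59 in fat and 3.16 to 3.93 in gland. With arrays centred and scaled to a common spread, the differences of both Car3 clones, Adipoq, Pparg, the second clones of Lpl and Angptl4, and Scd1 turned below 0.

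A part of the genes that load, store and release triglyceride was also higher in fat. Of 41 clones for 22 genes of lipid droplets, triglyceride storage and lipolysis, 12 were higher, covering 9 genes, and 0 lower (background 5.31% and 3.78%). The median difference was 0.59, and without Fat 44, 9 were higher with a median of 0.55. All 12 stayed above 0 and 6 were called after quantile normalization, while 10 stayed above 0 and 1 was called with scaling to a common spread. Angptl4, a secreted inhibitor of lipoprotein lipase, gave 3.20, 3.10 and 3.09 in fat and -0.02, -0.05, 0.36, 0.53 and 0.27 in gland. The fat samples were nearly equal and far above each gland, by 2.92 ± 0.16 (7.55-fold, adjusted p = 0.000526). Its 2 other clones differed by 0.76 (adjusted p = 0.029) and 0.24 (adjusted p = 0.238).

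Uptake and storage proteins followed with smaller steps, given here for the clone of smallest adjusted p. Cd36, a fatty acid transporter, was at 2.55, 2.56 and 2.55 in fat and 0.88 to 1.41 in gland (1.40 ± 0.14, adjusted p = 0.00301). Dgat2, which makes the last bond of triglyceride, was at 3.67, 3.43 and 3.45 in fat against 0.86, 1.13, 2.00, 2.24 and 1.77 in gland (1.92 ± 0.33, adjusted p = 0.016). Cidec, which enlarges lipid droplets, was at 5.79, 5.08 and 5.25 in fat against 2.25, 2.64, 3.53, 3.65 and 3.81 in gland (2.20 ± 0.40, adjusted p = 0.0196). For both genes VMG 13 and 17 were the lowest samples. The lipases of lipolysis rose as well on 1 clone each, Mgll by 1.71 and Lipe, the hormone-sensitive lipase, by 1.70 (adjusted p = 0.00304 and 0.0137). Pnpla2, which starts lipolysis, had a difference of 0.95 that did not pass (adjusted p = 0.0701), and the 2 clones of Plin1, a coat protein of the lipid droplet, gave 0.40 and -0.08 (adjusted p = 0.157 and 0.816).

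Fatty acid synthesis did not share this direction. Of 26 clones for 15 genes, 1 was higher and 1 lower, and the median difference was -0.06. Scd1, a fatty acid desaturase, rose by 1.03 ± 0.18 on 1 clone (adjusted p = 0.0169) and turned to -0.41 under scaling to a common spread. Slc25a1, which exports citrate from mitochondria, fell by 1.17 (adjusted p = 0.0117) and turned to 0.08 under quantile normalization. The 3 clones of Fasn, the fatty acid synthase, differed by 0.20, -0.13 and -0.07 and did not pass.

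Oxidation, respiration and brown fat genes gave few calls on the deposited ratios. Of 14 fatty acid oxidation clones 1 was higher, Etfa, a flavoprotein subunit of electron transfer (0.93, adjusted p = 0.042), and 1 lower, Pdk4, a kinase that restrains pyruvate oxidation (-0.71, adjusted p = 0.0488), which was not called without Fat 44 (adjusted p = 0.072). The other clones of Etfa and Pdk4 were not called. Of 14 respiration clones 1 was higher, a clone of Uqcrc2 with Fat 44 at its repeated value, while the other Uqcrc2 clone gave -0.91 (adjusted p = 0.085). None of 5 thermogenic fat clones was called. Cidea, a lipid droplet protein of brown adipocytes, gave -2.90, -1.20 and -1.51 in fat and -0.62, -0.28, 0.71, 1.35 and 1.38 in gland. The fat samples were the lowest, yet the difference of -2.38 ± 0.60 missed the threshold (adjusted p = 0.0513, and 0.0613 without Fat 44). Ucp1, the uncoupling protein, differed by -0.32 (adjusted p = 0.563).

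The glands themselves differed in these metabolic lists, a pattern looked at after the values were seen and given without a test. VMG 13 and 17 were both below VMG 27, 28 and 29 on 13 of 14 respiration clones (92.9%), 10 of 14 oxidation clones (71.4%) and 26 of 41 lipid droplet and storage clones (63.4%), against 27% of all clones. Median log2 ratios of the respiration list were 0.76 and 0.79 in VMG 13 and 17, 1.54 to 1.71 in VMG 27, 28 and 29, and 0.57 to 0.83 in fat. For respiration, fat thus lay at the level of VMG 13 and 17.

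A part of the genes of the mammary epithelium was lower in fat. Of 21 clones for 16 luminal genes, 7 were lower and 0 higher with all arrays (background 3.78% and 5.31%, median -2.13). Without Fat 44, 14 were lower and 1 higher (background 6.44% and 6.69%, median -1.61). The array medians of this list were -2.89, -1.66 and -1.74 in Fat 44, 45 and 46 and -0.20 to 0.04 in VMG. All 7 clones stayed below 0 under each scaling tried, and 5 to 7 of them stayed called.

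Muc1, a mucin of the luminal surface, gave -3.19, -3.48 and -2.87 in fat and -0.49, -0.65, -0.50, -0.46 and -0.87 in gland. The groups were far apart (-2.58 ± 0.17, adjusted p = 0.000606). Krt19, a keratin of luminal cells, was at -0.95, -0.96 and -1.56 in fat and -0.14, 0.87, 1.40, 1.38 and 1.33 in gland, where VMG 13 was the lowest, and the groups did not overlap (-2.13, adjusted p = 0.0185). Krt7, another keratin of simple epithelium, differed by -1.41 on 1 clone (adjusted p = 0.00569) and by 0.07 on the other (adjusted p = 0.72). Elf5, a transcription factor of the alveolar lineage, was at -11.29, -4.67 and -4.74 in fat and -1.23, -0.02, -0.90, -1.17 and -0.96 in gland, so the difference of -6.04 ± 1.45 (adjusted p = 0.044) became -3.85 ± 0.31 without Fat 44 (adjusted p = 0.000473).

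Further epithelial genes were called without Fat 44 but not with all arrays. Cdh1, the epithelial cadherin, was at -9.83 in Fat 44, -2.75 and -2.11 in Fat 45 and 46 and -0.74 to 0.04 in gland, with differences of -4.68 (adjusted p = 0.11) and -2.21 without Fat 44 (adjusted p = 0.00194). Cldn7, a tight junction claudin, behaved likewise on 1 of its clones (-3.51, adjusted p = 0.108, and -1.68, adjusted p = 0.00276). In each case Fat 44 was below the other fat samples and these were below all glands. The 2 clones of Ltf, which encodes lactoferrin, moved in opposite directions without Fat 44, by 1.05 (adjusted p = 0.0122) and -2.10 (adjusted p = 0.0124).

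Myoepithelial and skin genes showed less. Of 21 myoepithelial and basal clones, 1 was higher, Tgfb1i1, an adaptor of focal adhesions (0.58, adjusted p = 0.0427), and without Fat 44, 2 were lower and 0 higher. The clone of Krt14, a basal keratin, gave -0.36 (adjusted p = 0.177). Of 9 clones of keratinizing epithelium and skin none was called with all arrays, and 4 were lower without Fat 44, among them Krt4 (-2.0, adjusted p = 0.00166) and Sprr1a (-1.41, adjusted p = 0.0202).

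Some milk protein clones were lower in fat, measured against a reference that contained lactating gland. Of 18 clones for 13 genes, 4 were lower and 0 higher (background 3.78% and 5.31%, median -0.55), and 7 were lower without Fat 44. Csn2, the beta-casein, was at -5.54, -4.83 and -5.15 in fat and -3.41, -3.0, -3.05, -3.38 and -3.17 in gland, with a difference of -1.97 ± 0.19 (adjusted p = 0.00261), which turned to 0.47 under quantile normalization. Csn1s2a fell by 2.04 (adjusted p = 0.00243) on 1 of 3 clones, while another was above the reference in every sample and differed by -0.06 (adjusted p = 0.854). Glycam1 fell by 2.63 (adjusted p = 0.0269) and turned to 0.11 under scaling to a common spread and 1.10 under quantile normalization. Lcn2, a secreted iron-carrier binding protein, was at -6.32, -5.62 and -6.08 in fat and -2.06, -0.80, -1.13, -1.47 and -1.19 in gland, a clear gap of -4.68 ± 0.30 (adjusted p = 0.000587) that kept its direction under each scaling tried. Its call was lost under quantile normalization, where 0 of the 4 called milk clones stayed called. Under scaling to a common spread 1 of the 4 stayed called.

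**Figure D4:**
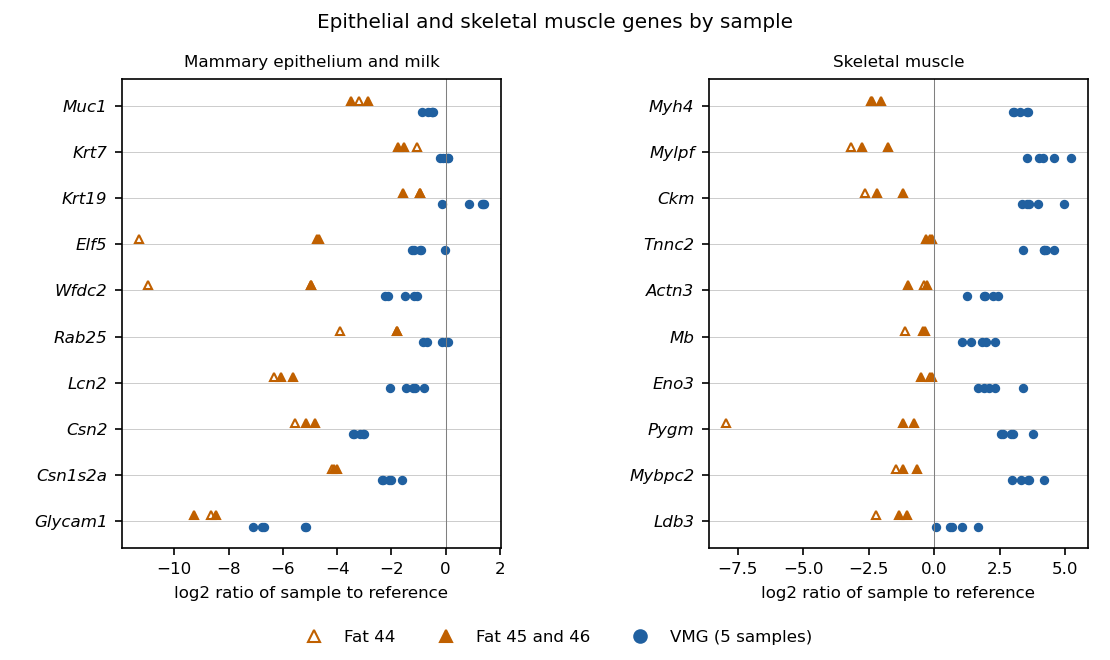
Log2 ratio of sample to reference for mammary epithelial and milk genes (left) and skeletal muscle genes (right), a point for each sample, with Fat 44 as open triangles, Fat 45 and 46 as filled triangles and the 5 VMG samples as circles. For every gene shown all fat samples lay below all glands, as for Myh4 at -2.41 to -2.04 in fat and 2.99 to 3.58 in gland. The differences of Glycam1 and Csn2 turned above 0 under quantile normalization, and that of Glycam1 also under scaling to a common spread.

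The list of skeletal muscle genes had a median above the reference in every gland and the lowest median difference of the 31 lists. Of 12 skeletal muscle clones for 11 genes, 8 were lower in fat and 0 higher, with and without Fat 44 (medians -2.51 and -2.57), and all 8 stayed called under each scaling tried. Array medians of the list were 2.27 to 3.29 in VMG and -0.69 to -0.32 in fat. The part of muscle tissue in the lower values of other genes in fat was not tested.

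Myh4, the fast myosin heavy chain, gave -2.37, -2.41 and -2.04 in fat and 3.53, 3.04, 3.58, 2.99 and 3.28 in gland. The samples within each tissue were close together and the tissues were 47.2-fold apart (-5.56 ± 0.18, adjusted p = 5.5e-05). Mylpf, a fast myosin light chain, was at -3.16, -2.74 and -1.77 in fat against 4.55, 3.98, 5.2, 3.52 and 4.16 in gland (-6.84 ± 0.44, adjusted p = 0.000587). VMG 27 was the highest gland for Mylpf, Ckm and Eno3. Ckm, the muscle creatine kinase, differed by -5.89 ± 0.44 (adjusted p = 0.00114) on 1 clone, while the other gave 0.59 (adjusted p = 0.0853). Tnnc2, the fast troponin C, differed by -4.30 (adjusted p = 0.000526), Actn3 by -2.49, Eno3 by -2.52 and Mb, which encodes myoglobin, by -2.35.

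Mybpc2, a fast myosin binding protein, was lower on 2 of its 3 clones, by -4.63 (adjusted p = 0.000587) and -3.83 (adjusted p = 0.00361), and the third gave -0.85 (adjusted p = 0.132). On the second of these Fat 44 was at its repeated value, and the difference without it was -4.29 (adjusted p = 0.000387). Pygm, the muscle glycogen phosphorylase, was at -7.93 in Fat 44 and -1.19 and -0.78 in the other fat samples, so its difference of -6.28 (adjusted p = 0.046) was -3.96 without Fat 44 (adjusted p = 0.00049). The list members not called were Mybph (-1.08, adjusted p = 0.0791), Atp2a1 (-0.50, adjusted p = 0.14), Pvalb (-0.45, adjusted p = 0.348) and the second Ckm clone. Atp2a1, a calcium pump of fast muscle, was above the reference in fat as well, at 2.55, 2.15 and 2.69, close to 2.55 to 3.19 in gland.

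Several other clones had the same gap between fat and gland. The Ano4 clone was at -9.12, -4.0 and -2.89 in fat and 3.78 to 5.40 in gland (-9.87 ± 1.30, adjusted p = 0.00704, and -7.98 without Fat 44). Its 2 other clones did not pass with all arrays (0.46, adjusted p = 0.462, and -3.22, adjusted p = 0.147), and the latter was lower without Fat 44 (-1.29, adjusted p = 0.0178). The Sec22b clone was at -3.97, -2.46 and -2.77 in fat and 3.95 to 5.44 in gland (-7.65 ± 0.44, adjusted p = 0.000526), whereas its 2 other clones gave -2.98 and 0.29 (adjusted p = 0.243 and 0.162), the first of which was lower without Fat 44 (-0.54, adjusted p = 0.0429). For Clic4, a chloride channel protein, a clone fell by 5.74 (adjusted p = 0.00243) and another rose by 0.50 (adjusted p = 0.0482). Ahnak2 had a single clone, at -1.63, -1.75 and -1.66 in fat and 3.49 to 4.48 in gland (-5.73 ± 0.26, adjusted p = 0.000271).

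Further large falls were in secreted and surface proteins. Ptn, which encodes the growth factor pleiotrophin, was at -0.16, 0.71 and -0.10 in fat and 4.15, 4.82, 5.08, 5.54 and 4.96 in gland, with no overlap (-4.76 ± 0.33, adjusted p = 0.000744). Tmprss2, an epithelial serine protease, was lower on 2 of 4 clones, by -6.70 (adjusted p = 0.02) and -6.08 (adjusted p = 0.0416), both with Fat 44 under -8 and both still called without it (-5.00 and -3.89). Mup9, of the near-identical major urinary proteins that a clone cannot separate, had no value in Fat 44, so the fit used Fat 45 and 46 at -8.70 and -8.64 against -6.41 to -2.90 in gland (-4.41, adjusted p = 0.034).

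Some vessel genes were higher in fat. Of 42 endothelial clones for 23 genes, 9 were higher and 0 lower (background 5.31% and 3.78%), with and without Fat 44, and the median difference was 0.28. Nos3, the endothelial nitric oxide synthase, was at 2.82, 2.42 and 2.15 in fat and 0.36, 0.64, 0.44, 1.36 and 0.73 in gland (1.76 ± 0.26, adjusted p = 0.00963), and its second clone rose by 0.84. Smaller steps were seen for Tie1 (0.64), Cdh5 (0.73) and Esam (0.79), which encode proteins of endothelial cells. All 9 clones stayed above 0 under each scaling tried, with 2 to 3 called under quantile normalization or scaling to a common spread.

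Matrix genes gave 5 higher and 1 lower of 38 clones (13.2% and 2.63%, background 5.31% and 3.78%), with a median of 0.24. Those that rose included basement membrane components, Lama4 by 1.69 ± 0.21 (adjusted p = 0.00567), Col4a1 by 0.88 (adjusted p = 0.0177) and Nid1 by 0.69 (adjusted p = 0.0326), the last of which turned to -0.11 under scaling to a common spread. The clone that fell was of Col3a1, a fibrillar collagen (-0.66, adjusted p = 0.0204), whose other clone was not called lower. Col5a2, also a fibrillar collagen, rose by 1.23 (adjusted p = 0.0386). Outside this list Prelp, a matrix proteoglycan, was at 3.36, 3.35 and 3.20 in fat and 0.69 to 1.48 in gland (2.16 ± 0.20, adjusted p = 0.00243). Its other clone differed by 0.74 and did not pass (adjusted p = 0.062).

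Immune lists had few calls and mixed directions with all arrays. Of 20 B and plasma cell clones 1 was higher and 2 lower (5% and 10%, background 5.31% and 3.78%). The higher was Ighm, the heavy chain of IgM (1.51, adjusted p = 0.00395), and the lower were Fcmr, an IgM receptor (-0.87, adjusted p = 0.035), and Ms4a1, the B cell antigen CD20, at -2.18, -2.06 and -1.82 in fat and -0.35 to 0.20 in gland (-1.94 ± 0.16, adjusted p = 0.0017). The groups did not overlap for Ms4a1, and its 2 other clones were not called with all arrays. Without Fat 44, 1 B and plasma cell clone was higher and 4 were lower (5% and 20%, background 6.69% and 6.44%). None of 17 T and NK cell clones was called with all arrays and 2 were lower without Fat 44. In the same list VMG 13 and 17 were both above the other 3 glands on 8 of 17 clones (47.1%), against 17.5% of all clones. This was also seen on 9 of 20 B and plasma cell clones (45%) and 9 of 29 interferon response clones (31%).

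Macrophage clones gave 1 higher and 1 lower of 21 (4.76% each, background 5.31% and 3.78%), and 3 and 1 without Fat 44. Adgre1, a surface receptor of macrophages, rose by 0.61 ± 0.10 (adjusted p = 0.0169), and Itgam, an integrin of myeloid cells, fell by 1.15 (adjusted p = 0.00862). Cd68, a lysosomal protein of macrophages, was at -9.38 in Fat 44, 1.19 and 0.69 in Fat 45 and 46 and -0.43 to 0.50 in gland. A single array therefore set its direction, from -2.42 (adjusted p = 0.468) to 1.02 without Fat 44 (adjusted p = 0.0375). Of 8 mast cell and granulocyte clones, Cma1, a mast cell chymase, was lower (-1.35, adjusted p = 0.0222) and Mpo, the neutrophil myeloperoxidase, higher (0.99, adjusted p = 0.0383), both with Fat 44 at its repeated value and both called without it. The other Mpo clones were not called with all arrays.

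Some genes of the mesothelium and of body position were higher in fat. Of 10 mesothelium clones for 8 genes, 3 were higher and 1 lower (30% and 10%, background 5.31% and 3.78%), with a median difference of 0.05. The lower was Krt19, which is shared with the luminal list. Gpm6a, a membrane glycoprotein, was at 0.90 and 0.23 in Fat 45 and 46, at its repeated value in Fat 44, and at -2.73, -2.53, -2.26, -2.65 and -2.35 in gland. Fat was above every gland, and the difference without Fat 44 was 3.07 ± 0.21 (adjusted p = 0.000249). Nkain4 differed by 2.54 without Fat 44 (adjusted p = 0.00129), with Fat 44 at its repeated value, and Igfbp6, an IGF binding protein, by 1.41 with all arrays (adjusted p = 0.0052). Of 19 depot and position clones, 3 were higher and 0 lower (15.8% and 0%, median 0.47), and 5 were higher and 1 lower without Fat 44 (median 0.27). The 3 higher clones all encoded transcription factors, Shox2 by 1.99 (adjusted p = 0.0256), Meox2 by 1.08 (adjusted p = 0.00755) and Tcf21 by 0.61 (adjusted p = 0.0361).

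Lists for tissues next to either sample gave at most 3 calls in either direction with all arrays. None of 4 pancreatic acinar clones was called, and their medians were -10.09, -6.33 and -5.03 in fat and -5.29 to -4.58 in gland, far below a reference that contained pancreas. Of 16 intestinal epithelium clones 1 was lower in fat, Guca2a, which encodes guanylin (-1.15, adjusted p = 0.0245), and 0 were higher. Without Fat 44, 3 of these clones were lower and 0 higher (18.8% and 0%, background 6.44% and 6.69%). Of 21 visceral smooth muscle clones 2 were higher and 5 lower without Fat 44 (9.52% and 23.8%, background 6.69% and 6.44%). With all arrays 2 were higher and 3 lower (9.52% and 14.3%, background 5.31% and 3.78%). Both higher clones were of Flna, an actin crosslinker (0.71 and 1.12). The lower were Lmod1 (-0.83, adjusted p = 0.00912) and 2 clones of Ldb3, a Z-disc protein of skeletal muscle (-2.36 and -2.55). The other Ldb3 clone was lower without Fat 44 (-2.7, adjusted p = 0.00557). The falls of Ldb3 are therefore not read as a result about smooth muscle. Of 13 nerve and Schwann cell clones 1 was higher and 3 lower (7.69% and 23.1%), and 1 and 2 without Fat 44 (7.69% and 15.4%). Sox10, a transcription factor of glia, rose by 1.52 ± 0.14 (adjusted p = 0.00243). Those that fell included Mbp, the myelin basic protein (-1.10, adjusted p = 0.00844), and Mal (-1.80, adjusted p = 0.00506), which luminal cells also express. None of 9 erythrocyte clones was called with all arrays, and 1 was lower without Fat 44.

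Wnt and receptor genes were measured because the series studies Wnt-1 and Neu tumors. Of 23 Wnt pathway clones 3 were higher and 2 lower (13% and 8.7%, background 5.31% and 3.78%), and the median difference was -0.22. Both clones of Fzd4, a Wnt receptor, rose. The larger gave 2.77, 2.43 and 2.34 in fat and 0.62, 0.30, 0.43, 0.91 and 0.74 in gland (1.91 ± 0.18, adjusted p = 0.00243) and the other 1.23 (adjusted p = 0.00461). Sfrp1, a secreted Wnt antagonist, fell on 2 of 4 clones, by 1.79 (adjusted p = 0.0153) and 1.55 (adjusted p = 0.0349), with fat at -3.20, -1.77 and -2.04 and glands at -0.63 to -0.38 on the first. Of 41 receptor clones 4 were higher and 1 lower (9.76% and 2.44%), and the median difference was -0.06. Ghr, the growth hormone receptor, rose by 0.99. Rxrg and Rxra, partners of nuclear receptors such as Pparg, rose by 1.22 and 0.92 on 1 clone each, and their other clones were not called. Erbb3, a partner of Neu, fell by 0.96.

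Of 29 interferon response clones 3 were higher and 1 lower (10.3% and 3.45%, background 5.31% and 3.78%), with a list median of -0.01. Higher were B2m (0.73), Gbp2 (0.82) and 1 clone of Irf8 (0.69), whose other clones were not called. The Irf8 difference turned to -0.05 and -0.46 under quantile normalization and scaling to a common spread. The lower clone was Irf9 (-0.52), which was not called without Fat 44 (-0.46, adjusted p = 0.0575). A clone of Oas2 was at -0.65 in Fat 44, -6.95 and -6.42 in Fat 45 and 46 and -0.21 to 0.64 in gland, where 4 of the 5 values were the repeated value of their array, so its call without Fat 44 (-6.95, adjusted p = 2.1e-05) rested on repeated values. Of 18 cell cycle clones Mcm7 was lower (-0.71, adjusted p = 0.0119, turning to 0.27 under quantile normalization), and the list median was -1.14, or -0.20 without Fat 44. Of 9 ribosomal protein clones 3 were lower, Rpl8 (-0.63), Rpl13a (-0.75) and Rpl7 (-0.91), of which Rpl8 was called without Fat 44 (list median -0.60, and -0.41 without Fat 44). Of 13 glycolysis clones 1 was lower, Eno3, which is shared with the muscle list. Without Fat 44, 3 glycolysis clones were lower and 0 higher (23.1% and 0%, background 6.44% and 6.69%). None of 21 immediate early and stress clones was called with all arrays, and 1 was higher and 1 lower without Fat 44. Of the 6 lists without a call by limma with all arrays, an unadjusted p under 0.05 was reached by 2 lower clones of brown fat, 3 of skin, 6 of T and NK cells, 1 of pancreas and 3 of erythrocytes, and by 5 higher and 3 lower immediate early clones, with 1 higher erythrocyte clone. All fat samples were below all glands on 2, 3, 5, 0, 2 and 4 clones of these lists, in the same order, and above them on 4 immediate early clones and 0 of the others. Over all 15360 clones, an unadjusted p under 0.05 was reached by 2026 higher and 2453 lower clones. Fat lay below all glands on 16.3% of all clones and above them on 11.8%, so these small counts are not read as results about the lists.

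**Figure D5:**
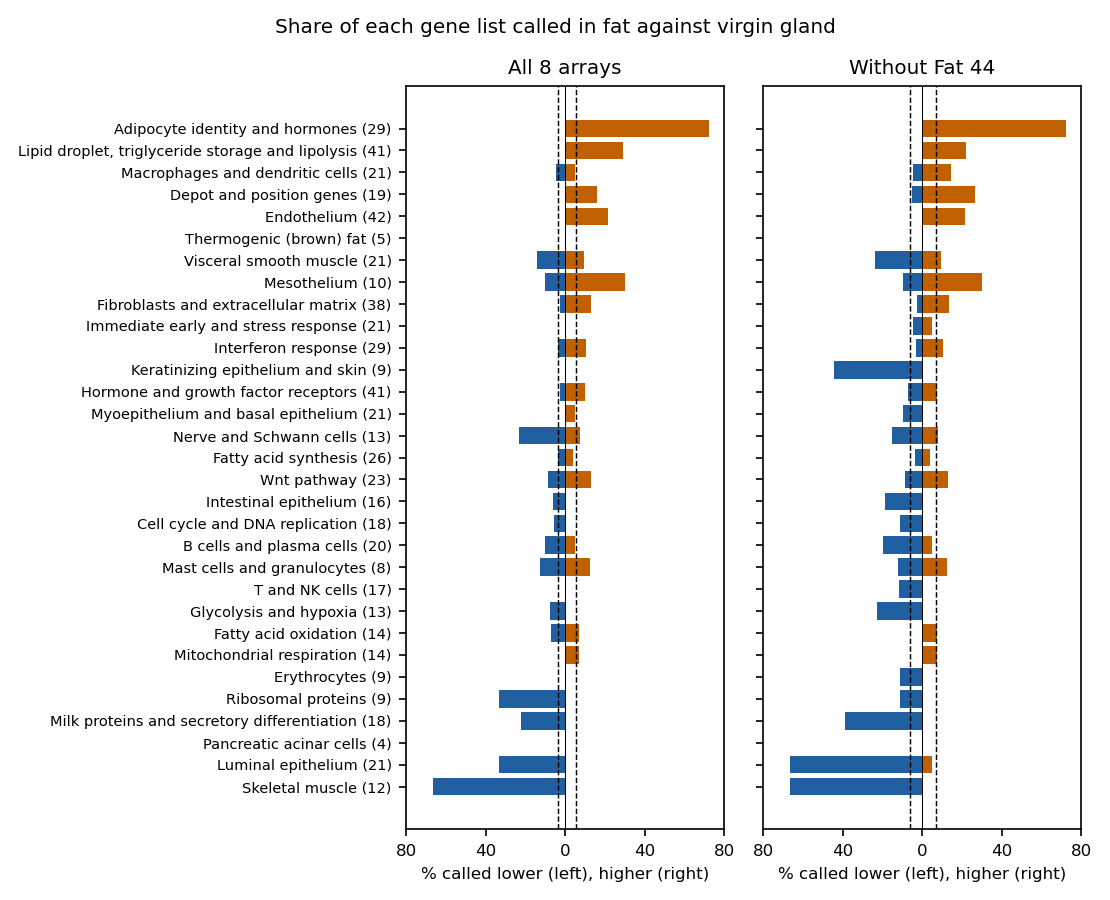
Share of the clones of each of the 31 gene lists called higher (right) or lower (left) in fat than in VMG, with all 8 arrays and without Fat 44. Dashed lines mark the shares over all clones, 5.31% higher and 3.78% lower with all arrays and 6.69% and 6.44% without Fat 44, and numbers in brackets count clones. Adipocyte genes reached 72.4% higher in both panels and skeletal muscle 66.7% lower, while after scaling to a common spread 5 of the 21 adipocyte clones were still called.

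Among the clones of largest rise outside these lists, a few genes are of known function. Lpgat1, an acyltransferase of phospholipid synthesis, was at 2.20, 1.54 and 1.76 in fat and -0.16, -0.35, -0.30, -1.28 and -0.27 in gland (2.31 ± 0.29, adjusted p = 0.00604). Pcbd1, a dehydratase of tetrahydrobiopterin recycling, was at -3.29, -3.28 and -2.84 in fat and -6.42 to -4.81 in gland, so that it was below the reference in both tissues and higher in fat (2.60, adjusted p = 0.011). Parp3, an ADP-ribosyltransferase of DNA repair, rose on both clones, by 2.20 (adjusted p = 0.00301) and 1.58 (adjusted p = 0.0289), the latter with Fat 44 at its repeated value. The groups did not overlap for any of these clones.

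The others were less well characterised or their clones disagreed. The clone 4930412C18Rik rose by 2.96 (adjusted p = 0.00645), from 2.21 to 3.64 in gland to 5.60 to 6.73 in fat. A clone of Zfp592 rose by 2.84 (adjusted p = 0.00303) and a clone of Mmgt2 by 2.43 (adjusted p = 0.00481), but the other 2 clones of each did not pass. The clone 1600010M07Rik rose by 2.12 (adjusted p = 0.0295) with Fat 44 at its repeated value.

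The same clones were also read in the other tissues on the 15k arrays, as a description without a test. These were 7 hyperplastic glands of MMTV-Wnt-1 mice (WntH), in which the mammary tumor virus promoter drives Wnt-1, 23 tumors of such mice (WntT) and 12 tumors of MMTV-Neu mice (NeuT). The Neu mice were FVB, whereas the Wnt-1 mice were of mixed FVB, SJL and C57BL/6 background. Adipoq ran from 2.75 to 3.73 in WntH (median 2.90), from -2.0 to 0.16 in WntT and from -3.23 to -0.92 in NeuT. Its order in the deposited ratios was thus fat, VMG, WntH and then tumors, without overlap between these steps. The first Car3 clone had the same order, with 2.25 to 3.15 in WntH, -6.02 to -1.53 in WntT and -5.96 to -2.47 in NeuT, where both kinds of tumor overlapped. The difference between fat and VMG turned below 0 under scaling to a common spread, to -0.57 for Adipoq and -0.29 for this Car3 clone.

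Leptin and the lineage regulator Cebpa differed from this in the hyperplastic glands. Lep was at 1.10 to 3.17 in WntH, with a highest value just above the lowest gland of 3.16, and at -0.35 to 0.68 in WntT and 0.32 to 1.14 in NeuT. Cebpa was at -1.12 to -0.12 in WntH, -2.0 to 0.16 in WntT and -1.55 to -0.52 in NeuT, so WntH overlapped the tumors and lay below VMG. The Angptl4 clone that was near the reference in VMG was at -0.27 to 0.17 in WntH, overlapping VMG, and at -2.97 to -0.06 in WntT and -1.69 to -0.16 in NeuT.

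Muscle clones were high in both kinds of gland. Myh4 ran from 1.76 to 3.53 in WntH, from -5.48 to 0.67 in WntT and from -3.93 to 0.29 in NeuT. The falling clones of Ano4, Sec22b, Ahnak2 and Clic4, chosen for this view after their values were seen, were likewise high in WntH and low in tumors, with WntH medians of 4.79, 4.46, 3.92 and 2.37, WntT medians of -2.79, -2.78, -1.88 and -1.13, and NeuT medians of -2.84, -2.85, -2.91 and -1.45. Ptn differed, since it was at 3.36 to 5.92 in WntT and 2.44 to 4.02 in WntH but at -1.24 to 0.29 in NeuT, where it overlapped fat. Elf5, low in fat, was at -0.56 to 1.61 in WntH, -1.38 to 1.35 in WntT and 0.10 to 0.76 in NeuT.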

How the data were processed

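The authors hybridized Cy5-labeled sample and Cy3-labeled reference cDNA, imaged the slides with a GenePix scanner, rated every spot for quality and deposited normalized log2 ratios of sample to reference per clone. The ratings were not used here, which leaves the study's quality filter unrepeated. A table of a smaller 8.7k array was not used because it has no sample of either tissue. Of the clones on the array, 11860 carried a single gene symbol, 705 several and 2795 none, and only the first were named. The medians of the 8 arrays lay within -0.08 and 0.04. Precision is limited by how few arrays there are.

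For each clone Fat was tested against VMG by lmFit and eBayes of limma 3.58.1 under R 4.3.3, two-sided, for clones with at least 2 values in each tissue, and called at a Benjamini-Hochberg adjusted p under 0.05 over all clones. Values are of the called clone where a gene has several. A difference is the mean log2 ratio in fat minus that in gland, with its moderated standard error, and every fit was repeated without Fat 44. Only the clone level was tested, and gene lists were described by counts and medians with no set test. The genes named were Car3 and Lpl, the 12 clones of largest rise and of largest fall called in both fits, and the 3 members of smallest adjusted p of each of 31 lists. Other clones of these genes, further list members and Plin1, Fasn, Ucp1, Krt14, Atp2a1, Pvalb and Mybph were named after their values were seen. Members and lists were chosen with earlier results of these data known. The fit was tested on simulated data (12820 clones). With all arrays it recovered 4 of 50 clones changed 1.5-fold, 27 of 50 changed 2-fold and 42 of 50 changed 4-fold, with 6 false among 126 calls. Without Fat 44 it recovered 7, 40 and 46, with 10 false among 153. In this simulation most changes near 1.5-fold were thus missed, so a clone without a call may still differ by that much. Its calls were a smaller share of clones than in the data (5.31% higher and 3.78% lower), so the same recovery need not hold there. Alternatives were leaving out each array, centring, scaling to a common median absolute deviation, quantile normalization, setting extreme or repeated values missing, another variance model, array weights, all 15k groups in 1 fit, averaging clones per gene, a permutation t-test counted at the smallest p that 56 splits allow (0.0179, a looser threshold than the study's), and a 3-fold minimum. Setting the repeated value missing was chosen after seeing the data.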

Additional observations from a re-analysis of the deposited data

Results flagged for a closer look

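Of 129 clones named or tested among the 5 glands, 6 had a gland whose gap to the nearest other gland was a large part of the range of all 5. Chance gives this in about 1 in 20 groups, so 6 of 129 is close to that share. VMG 27 was lowest for Zfp592 at 0.26, VMG 28 for Lpgat1 at -1.28 and VMG 29 for Rxra at -0.79. VMG 13 was lowest for Cldn7 at -0.76 and for Robo4, an endothelial receptor, at 0.09. VMG 17 was highest for Elf5 at -0.02. All values are log2 ratios to the reference, and what set these glands apart was not tested.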

How the results depend on the processing

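No paired analysis was possible because Fat and VMG share no replicate number. Leaving out 1 array at a time gave 372 to 1027 clones higher in fat and 205 to 989 lower. The counts moved by over 1.5 times from 816 and 580 without Fat 44 (lower, 989), Fat 45 (393 and 247), VMG 17 (377 and 229), VMG 27 (372 and 205), VMG 28 (430 and 212) and VMG 29 (415 and 217). Other settings that moved a count so far were scaling to a common median absolute deviation (372 higher and 357 lower), extreme ratios set missing (1011 lower), repeated value and extreme ratios set missing (1068 lower, chosen after seeing the data), array weights (1174 lower), all 15k groups in 1 fit (1255 and 3267), clones averaged per gene (334 and 248 genes), the permutation t-test at its smallest p of 0.0179 (1356 and 2184, a looser threshold than the study's) and a 3-fold minimum (90 and 112). Quantile normalization gave 574 and 613, centring 968 and 521, and the robust trended variance model 922 and 541. Array weights gave Fat 44 a weight of 0.0708, the lowest of the 8. Of the differences of single named clones under all alternatives, 1877 kept direction and side of the threshold, 345 lost and 70 gained a call, and 21 changed sign. Under scaling to a common spread the sign changed for Car3 (-0.29 and -0.14), Adipoq (-0.57), Pparg (-0.05 and -0.08), a clone each of Fabp4 (-0.30), Lpl (-0.29) and Angptl4 (-0.25), Scd1 (-0.41), Nid1 (-0.11), Irf8 (-0.46) and Glycam1 (0.11). Under quantile normalization it changed for Csn2 (0.47), Glycam1 (1.10), Slc25a1 (0.08), Mcm7 (0.27) and Irf8 (-0.05). Cd68, at -2.42 with all arrays, ran from -4.27 to 1.02 when 1 array was left out (-4.27 without Fat 45, 1.02 without Fat 44), and turned to 1.02 with extreme ratios missing, with or without the repeated value, and to 0.61 with array weights. The cause was not tested for these changes.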
